A study of Homo sapiens with 24 samples.

Results

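Of the known targets of the hypoxia-inducible factors (HIF) that act outside glycolysis, 10 were followed: CA9, CA12, VEGFA, ADM, NDRG1, EGLN3, ANKRD37, BNIP3, P4HA1 and MIR210HG. They were taken by symbol from the deposited count tables, 10 of 61533 genes, and all 10 were found. The counts come from 4 human cancer cell lines, each left untreated (0 s) or exposed to Piezo-CAP for 60 s, with RNA taken at 24 h and 3 libraries in each of 8 groups. Piezo-CAP is a cold atmospheric plasma (CAP), a partly ionised gas made by a piezoelectric device. Cal27 and Fadu are known as squamous carcinoma lines of the tongue and the hypopharynx, A375 as a melanoma line and Hth83 as an anaplastic thyroid carcinoma line. The labels call all 4 lines head and neck cancer cells of WT genotype. Cal27, A375 and Hth83 were grown in DMEM and Fadu in MEM, all with 10% serum, so medium and line cannot be told apart in Fadu. Each line stands for 1 established culture, and the labels leave unsaid if its libraries are separate cultures. The p-values therefore cover the spread among the libraries sequenced and nothing wider. By the series title, the aim was to make such tumours more sensitive to drugs and to checkpoint inhibition.

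HIF is a pair of proteins, an oxygen-regulated alpha subunit (HIF1A, or EPAS1, also called HIF-2 alpha) and the constant partner ARNT. With oxygen present, prolyl hydroxylases of the EGLN family mark the alpha subunit for VHL, which sends it to degradation. When oxygen is short the alpha subunit persists and the pair binds short DNA elements near its targets. ACGTG is a common form of their core and the only form searched for here. The alpha subunits are controlled mainly as proteins, so their mRNA does not report HIF activity, and no oxygen level or protein was measured here. In tumours CA9 and CA12 are membrane enzymes that handle carbon dioxide and acid outside the cell, VEGFA and ADM are secreted signals to blood vessels, and EGLN3 is an oxygen sensor. BNIP3 marks mitochondria for removal, P4HA1 hydroxylates collagen, NDRG1 is a stress-responsive protein and ANKRD37 is a small ankyrin-repeat protein. MIR210HG is the long non-coding host of miR-210.

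The promoter sequences are shown because the genes share a regulator that reads a defined core. RefSeq's promoter table (GRCh38.p14) held 8 of the 10 genes, all but VEGFA and NDRG1. In the 250 bases before the start site, 5 of the 8 carried ACGTG on either strand (CACGT when read on the gene's strand from the opposite one), a core that stood in 18.5% of 35116 promoters of this length. The 30 bases around the matches are given 5′ to 3′ on the gene's strand, with the core in capitals. CA9 carried 1 match at bases -18 to -14 from its start, ANKRD37 carried the palindrome CACGTG at -162 to -157 and a separate ACGTG at -143 to -139, and BNIP3 carried CACGTG at -134 to -129. P4HA1 held a match at -86 to -82 and MIR210HG one at -170 to -166. CACGTG, which counts as a match on both strands, stood in 6.34% of all promoters. No match was found in these windows of CA12, ADM and EGLN3, which says only that these letters are not there. By GENCODE 29 the 30-base stretches of CA9, ANKRD37 and P4HA1 lie inside the span of the gene, where longer transcripts start further upstream, and those of BNIP3 and MIR210HG lie before it.
CA9, chr9:35673898-35673927, plus strand: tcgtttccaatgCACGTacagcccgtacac
ANKRD37, chr4:185396676-185396705, plus strand: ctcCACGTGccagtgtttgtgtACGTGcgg
BNIP3, chr10:131982040-131982069, minus strand: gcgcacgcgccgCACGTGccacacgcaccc
P4HA1, chr10:73096935-73096964, minus strand: tgtgatcgagctCACGTagcgagggctgca
MIR210HG, chr11:568610-568639, minus strand: ctccccgggcagACGTGcagaaaagaacgc
Mature miR-210-3p, encoded on the minus strand at chr11:568112-568133 within the MIR210HG locus, has its seed, bases 2 to 8, in capitals below. Mature miRNAs were not measured in these libraries.
hsa-miR-210-3p: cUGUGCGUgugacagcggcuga

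Library totals ran from 27.9 to 49.5 M (mega) counts. Levels are CPM, the counts of a gene relative to the library's total, after TMM scaling over all 24 libraries, and genes are compared with each other only as CPM per kilobase of exon. Of 12 squamous markers, 10 in Cal27, 12 in Fadu and 11 in Hth83 exceeded 10 CPM in untreated cells, against 0 in A375, where 5 of 10 melanocyte markers did, led by SOX10 at 1058 CPM. Of 10 thyroid markers only PAX8 exceeded 10 CPM in Hth83, TG was at 0.0437 CPM and TP63 at 416 CPM. The thyroid markers summed to 137 to 139 CPM in untreated Hth83, the highest of the lines. They summed to 36.3 to 42.3 CPM in untreated Cal27, 18.3 to 21.3 in Fadu and 3.09 to 3.85 in A375. Hth83 thus held most squamous markers and, of the thyroid follicle markers, mainly PAX8, and it is called by its label throughout. The squamous markers summed to 4637 to 4727 CPM in untreated and 3476 to 3555 CPM in CAP libraries of Cal27, 9707 to 10045 against 5071 to 5483 CPM in Fadu, and 9305 to 9753 against 6401 to 7012 CPM in Hth83. Their part in the results was not tested. Leukocyte, endothelial and fibroblast markers summed to at most 8.55, 13.7 and 31.3 CPM in any library. In bulk RNA, fewer cells of a type and less RNA per cell cannot be told apart.

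Before treatment the 4 lines held the same genes at very different levels. All 10 passed the F test across untreated lines, as did 93.2% of the genes tested. Cal27 differed from A375 in 8 of the 10 (76.8% of all genes), from Fadu in 9 (69.6%) and from Hth83 in 10 (68.7%). A375 differed from Fadu in 9 (75.6%) and from Hth83 in 9 (71.7%), and Fadu from Hth83 in 7 (69.4%). These shares are high for all genes, so the counts are read against them. CA9 was high in Cal27 and A375, low in Fadu and close to absent in Hth83, with 26.9 ± 3.27, 21.4 ± 2.14, 2.73 ± 0.275 and 0.044 ± 0.0388 CPM (SD, n = 3). The step from Cal27 to A375 was 1.26-fold (edgeR adjusted p = 0.00611), although 1 pair of libraries nearly touched at 23.5 and 23.2 CPM. The step from A375 to Fadu was 7.81-fold (edgeR adjusted p = 1.64e-25). In Hth83 the CA9 row held 0, 2 and 2 counts, which is within 3 counts of 0 in every library, so no fold is given for it.

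EGLN3 followed another order. It stood at 67.6 ± 2.79 CPM in Cal27 and 64.5 ± 1.69 CPM in Fadu (SD, n = 3), which did not differ beyond their spread (1.05-fold, edgeR adjusted p = 0.61), at 0.357 ± 0.233 CPM in A375, and at 2, 6 and 0 counts in Hth83. CA12 was scarce everywhere, at 1.1 ± 0.115 CPM in Cal27, 0.805 ± 0.356 in A375 and 0.464 ± 0.112 in Fadu (SD, n = 3). Neither step of that order passed (edgeR adjusted p = 0.334 and 0.0665), and Hth83 held 0, 2 and 2 CA12 counts.

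The secreted factors ranked the lines differently again. VEGFA was highest in Hth83 (1055 ± 51.3 CPM), then Cal27 (775 ± 11.6), Fadu (286 ± 5.15) and A375 (136 ± 7.14; SD, n = 3), and each step passed, the smallest being 1.36-fold (edgeR adjusted p = 4.02e-11). ADM was high in Cal27 (101 ± 2.56 CPM) and Fadu (75.7 ± 1.89), with a step of 1.33-fold (edgeR adjusted p = 1.46e-07), and low in Hth83 (9.44 ± 0.457) and A375 (8.28 ± 0.785), which did not differ beyond their spread (edgeR adjusted p = 0.0659).

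NDRG1 was highest in Fadu (858 ± 15.9 CPM), followed by Hth83 (585 ± 43), Cal27 (359 ± 7.96) and A375 (195 ± 7.16; SD, n = 3), and every step passed. BNIP3 ranked from Cal27 (205 ± 8.08 CPM), A375 (173 ± 8.07), Fadu (70.6 ± 1.14) down to Hth83 (50.2 ± 2.89), again with every step passed. P4HA1 spanned 1.73-fold, from 103 ± 2.14 CPM in Cal27 and 76.2 ± 3.89 in A375 to 64.2 ± 5.5 in Hth83 and 59.8 ± 3.61 in Fadu, the last step not passed (edgeR adjusted p = 0.122). MIR210HG spanned 1.7-fold and was higher in A375 (10.3 ± 1.49 CPM) and Cal27 (9.5 ± 1.33) than in Hth83 (6.21 ± 1.38) and Fadu (6.05 ± 0.31), and no step within either of these pairs passed (edgeR adjusted p = 0.516 and 0.856). ANKRD37 stood at 6.3 ± 0.674 CPM in A375, 4.45 ± 0.421 in Cal27, 2.4 ± 0.177 in Hth83 and 2.09 ± 0.0366 in Fadu (SD, n = 3), the last step not passed (edgeR adjusted p = 0.433).

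**Figure D1:**
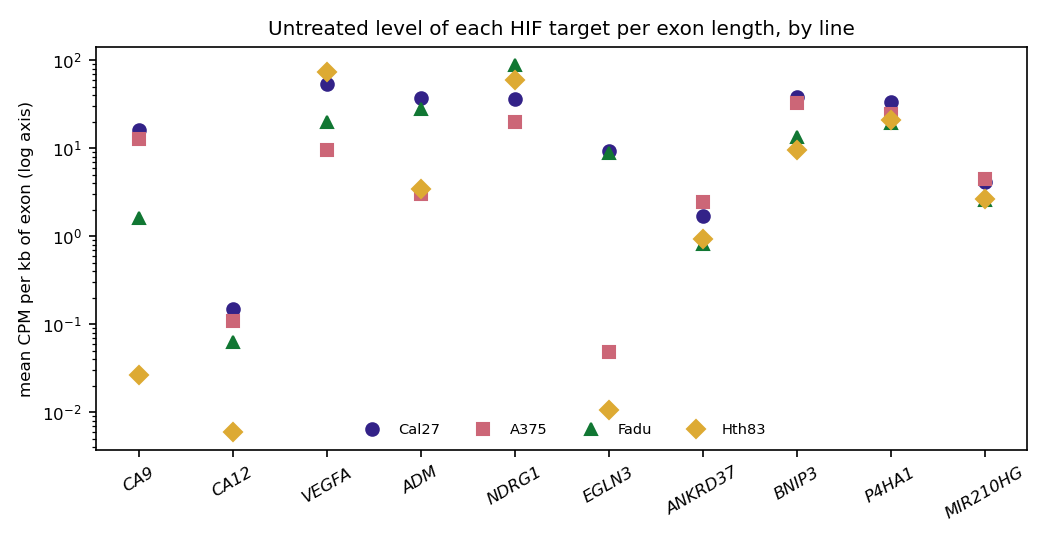
Mean untreated level of the 10 genes in CPM per kilobase of exon (log axis), 1 symbol per line, n = 3 libraries each. CA9 spreads from 16.1 in Cal27 to 0.0263 in Hth83 and EGLN3 from 9.19 to 0.0106, whereas P4HA1 stays between 19.3 and 33.3.

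Per kilobase of exon, VEGFA led in Cal27 at 53.7 CPM per kilobase and in Hth83 at 73.1, NDRG1 led in Fadu at 87.3, and BNIP3 led in A375 at 32.5. CA9 was at 12.8 in A375, above VEGFA at 9.42 there. Such orders depend on the length used, as in CPM VEGFA stood at 136 and CA9 at 21.4 in untreated A375. All annotated exons of VEGFA joined cover 14431 bases of its 16304-base span, against 1670 of 7304 for CA9. CA12 was the lowest of the 10 in Cal27 (0.15), Fadu (0.0634) and Hth83 (0.00602), and EGLN3 the lowest in A375 (0.0485). In Hth83 CA12 and CA9 each held 0, 2 and 2 counts, so their order there reflects exon length alone. The plot of untreated levels per exon length shows this spread.

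The response to CAP split the lines. Cal27 was the line in which the genes rose more often than they fell, with 4 higher (CA12, NDRG1, EGLN3, P4HA1) and 2 lower (VEGFA, ADM) of 10, beside 21.9% higher and 23.2% lower among all genes tested (edgeR quasi-likelihood test, adjusted p under 0.05). In A375 8 of 10 fell and 0 rose, beside 24.8% lower and 25.7% higher among all genes. The number higher in A375 was also 0 at an unadjusted p under 0.05 and with DESeq2 and limma, and EGLN3 and ANKRD37 were the 2 that did not pass. In Fadu 8 of 10 fell and MIR210HG rose, beside 27% lower and 26.3% higher among all genes, and BNIP3 did not pass. In Hth83, where only 7 of the 10 had enough counts to be tested, 5 fell and ADM rose, beside 24.2% lower and 25.9% higher among all genes, and ANKRD37 did not pass. The median log2 fold change over the genes tested was 0.05 in Cal27, -0.91 in A375, -0.97 in Fadu and -0.62 in Hth83, beside 0.00, -0.02, 0.01 and 0.00 over all genes. In either direction, 6 of 10 passed in Cal27 (45.1% of all genes), 8 of 10 in A375 (50.5%), 9 of 10 in Fadu (53.3%) and 6 of 7 in Hth83 (50.1%). The untreated and CAP libraries did not overlap in CPM for 6 of 10 genes in Cal27 (52.8% of all genes), 8 of 10 in A375 (57.7%), 9 of 10 in Fadu (58.6%) and 7 of 7 in Hth83 (57%).

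**Figure D2:**
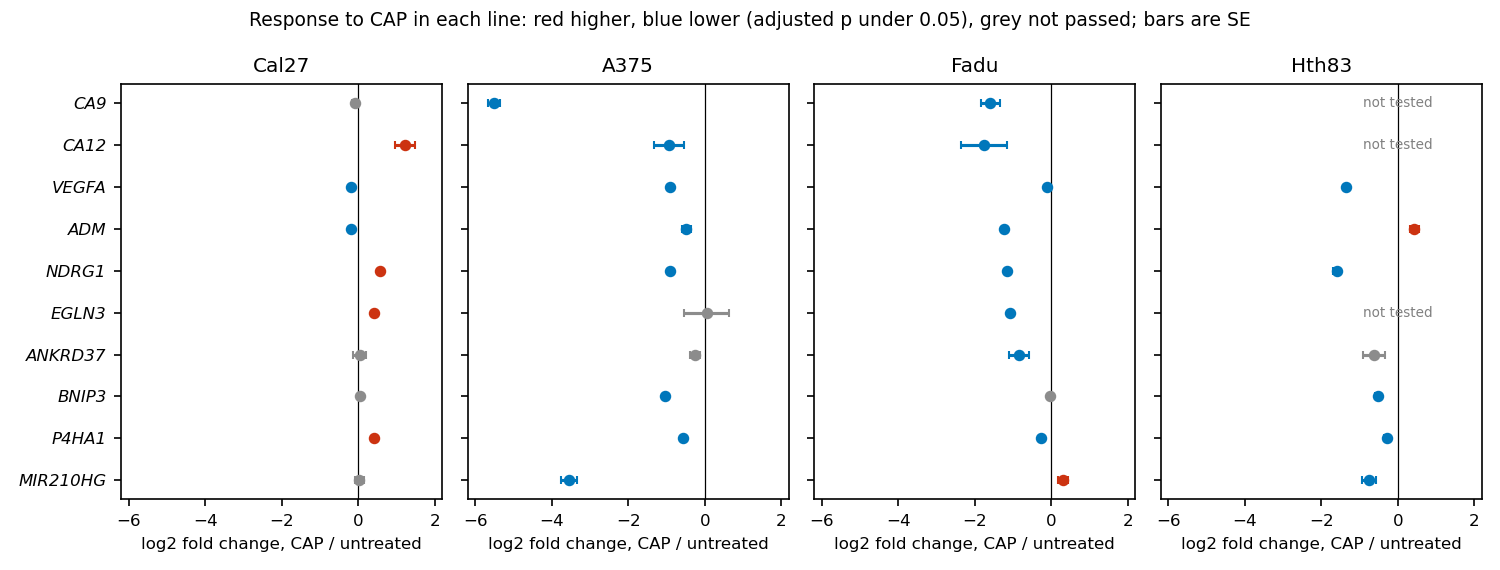
Log2 fold change of each gene, CAP over untreated, in each line (points) with its standard error (bars), 3 against 3 libraries. Points are red where higher, blue where lower and grey where the test was not passed, and CA9 in A375 at -5.51 lies farthest from 0.

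CA9, the acid-handling enzyme, lost almost all of its RNA in A375. The untreated A375 libraries held 19, 23.2 and 21.8 CPM (1016, 808 and 696 counts) and the CAP libraries 0.567, 0.434 and 0.395 CPM (18, 17 and 18 counts). All 3 CAP libraries lay below 1 CPM and no untreated library below 19 CPM, a 45.6-fold fall (log2 -5.51 ± 0.16 SE, edgeR adjusted p = 3.95e-22).

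In Fadu, which started lower, CA9 fell from 3.02, 2.47 and 2.71 to 1.13, 0.724 and 0.904 CPM. The groups did not overlap (log2 -1.59 ± 0.25 SE, edgeR adjusted p = 7.09e-08). Cal27, which started highest, held 30.1, 27.2 and 23.5 CPM untreated and 26.3, 24.7 and 25.1 CPM after CAP. These overlapped, and the log2 fold change was -0.08 ± 0.08 (edgeR adjusted p = 0.458).

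In Hth83 the CA9 counts were 0, 2 and 2 untreated and 0, 1 and 0 after CAP, too few to test. The effect in Cal27 exceeded that in A375 by 5.45 on the log2 scale (95% interval 4.99 to 5.91, edgeR adjusted p = 1.85e-25) and that in Fadu by between 1.01 and 1.98 (95% interval, adjusted p = 2.9e-07). The effect in A375 was also more negative than that in Fadu, by -3.96 (-4.61 to -3.30, adjusted p = 2.85e-15). CA9 (chromosome 9, 35673856 to 35681159) shares 643 exon bases, 38.5% of its exons, with ARHGEF39 on the opposite strand, and no source used here says if counting used strand. ARHGEF39 stood at 26.1 CPM in untreated and 23.6 CPM in CAP libraries of A375 (log2 -0.12, edgeR adjusted p = 0.156), so its level did not follow that of CA9 there. In Fadu ARHGEF39 fell, as CA9 did, from 15.3 to 12.8 CPM (log2 -0.27, edgeR adjusted p = 0.00925). In Cal27 ARHGEF39 rose (log2 0.31, edgeR adjusted p = 0.00917). The part of shared reads in the CA9 values was not tested.

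CA12, the second membrane carbonic anhydrase, moved opposite ways in Cal27 and Fadu. In Cal27 it rose from 1.22, 0.989 and 1.09 to 2.34, 3.1 and 2.24 CPM, with no overlap (log2 1.22 ± 0.26 SE, edgeR adjusted p = 0.00022). With limma on log2(TPM + 1) without a filter, a scale that understates changes of low genes, the CA12 value in Cal27 was 0.36 (adjusted p = 0.0563). In Fadu it fell from 0.348, 0.572 and 0.473 to 0.189, 0.103 and 0.117 CPM, which is 12 to 22 counts against 4 to 6 (log2 -1.77 ± 0.60 SE, edgeR adjusted p = 0.00922). The Fadu call needs 2 libraries, as the adjusted p for CA12 was 0.0638 without untreated replicate 2 and 0.0555 without CAP replicate 2.

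In A375 CA12 stood at 1.22, 0.603 and 0.596 CPM untreated and 0.378, 0.561 and 0.329 CPM after CAP. The log2 fold change was -0.94 ± 0.39 SE (edgeR adjusted p = 0.0475), and this CA12 call was lost in 8 of 13 alternatives, with values from -1.19 to -0.12. They included DESeq2 (adjusted p = 0.094), the fit of all 24 libraries (0.0602), and the omission of untreated replicate 1 (-0.48, 0.446) or of CAP replicate 1 or 3 (0.0924 and 0.159). The Hth83 counts were 0, 2 and 2 against 0, 2 and 0. Of the 13 other carbonic anhydrases, 7, 4, 5 and 5 could be tested in Cal27, A375, Fadu and Hth83. None rose in the first 3 lines, 1, 2 and 2 fell there, and in Hth83 the cytosolic CA2 rose (log2 0.75 ± 0.11 SE) and the mitochondrial CA5B fell (-0.76 ± 0.09 SE). Their medians were -0.35, -0.24, -0.19 and 0.16. The shares higher and lower among all genes in each line, given above, are the background for these counts and for those of each list that follows.

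VEGFA, the main growth factor for blood vessels, fell in all 4 lines under TMM scaling, strongly in Hth83 and A375. The untreated Hth83 libraries held 1049, 1008 and 1110 CPM and the CAP libraries 402, 457 and 372 CPM, a 2.56-fold fall (log2 -1.35 ± 0.06 SE, edgeR adjusted p = 7.89e-12). In A375 it fell from 144, 133 and 130 to 69.2, 69.9 and 74.2 CPM (log2 -0.91 ± 0.04 SE, edgeR adjusted p = 1.28e-16). Neither pair of groups overlapped.

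The falls of VEGFA in Cal27 (766, 788 and 771 to 702, 674 and 672 CPM) and Fadu (292, 284 and 283 to 262, 256 and 277 CPM) were small, with log2 -0.18 ± 0.03 and -0.12 ± 0.03 SE (edgeR adjusted p = 3.13e-05 and 0.00124). They depend on scaling. On the deposited TPM the Cal27 value for VEGFA was 0.06, in a scale that moved the median of all genes in Cal27 by 0.22, so VEGFA stayed below the median gene. With library size alone the VEGFA value in Fadu was -0.02 (adjusted p = 0.695), and with all 24 libraries in 1 fit its adjusted p was 0.0629. The Cal27 and Fadu effects did not differ beyond their error (-0.07, 95% interval -0.21 to 0.07).

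Relatives and receptors of VEGFA changed in both directions. VEGFC, which acts on lymphatic vessels, rose in Fadu (log2 2.18 ± 0.10 SE) and Hth83 (0.68 ± 0.09 SE) and fell in Cal27 (-0.52 ± 0.04 SE). The co-receptor NRP1 rose in A375 (0.86 ± 0.06 SE) and Fadu (0.94 ± 0.06 SE) and fell in Hth83 (-0.43 ± 0.07 SE). Of 9 family members and receptors, 5, 7, 8 and 6 were tested in Cal27, A375, Fadu and Hth83, with 0, 4, 4 and 3 higher and 2, 0, 0 and 1 lower, and medians of -0.11, 0.12, 0.42 and 0.09.

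ADM, which encodes the vessel-dilating peptide adrenomedullin, fell in Fadu, where it was abundant, from 73.7, 77.4 and 75.9 to 34, 34.6 and 28.7 CPM (log2 -1.23 ± 0.06 SE, edgeR adjusted p = 1.46e-33). In A375 it fell from 8.78, 8.68 and 7.37 to 6.11, 6.07 and 5.38 CPM (log2 -0.48 ± 0.12 SE, edgeR adjusted p = 0.0011). Hth83 went the other way, from 9.94, 9.34 and 9.04 to 12.5, 11.2 and 14.2 CPM (log2 0.43 ± 0.11 SE, edgeR adjusted p = 0.00232). The groups did not overlap in any of these lines, and the effect in Fadu differed from that in Hth83 by -1.64 (95% interval -1.88 to -1.41, edgeR adjusted p = 7.39e-18).

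In Cal27 ADM stood at 100, 103 and 98.2 CPM untreated and 86, 88.5 and 90.2 CPM after CAP (log2 -0.18 ± 0.05 SE, edgeR adjusted p = 0.00138). That call was lost with library size alone (-0.10, adjusted p = 0.0751), and on the deposited TPM the ADM value was 0.05, again under the shift of 0.22. The related peptide ADM2 fell in Cal27 (log2 -0.60 ± 0.05 SE), A375 (-3.36 ± 0.11 SE) and Fadu (-1.43 ± 0.17 SE) and was listed at 0 in Hth83. CALCRL, a part of the adrenomedullin receptor, fell in A375 (-1.11 ± 0.31 SE) and Fadu (-2.47 ± 0.56 SE). RAMP1, another receptor part, rose in Fadu (2.09 ± 0.50 SE) and fell in Cal27 (-0.68 ± 0.10 SE). RAMP2 and RAMP3, further receptor parts, gave no call in Cal27, A375 or Fadu, being untested or not passed. Of 7 peptides and receptor parts, 4, 6, 5 and 1 were tested, with 0, 1, 1 and 1 higher and 2, 2, 2 and 0 lower, and medians of -0.37, -0.74, 0.09 and 0.74.

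**Figure D3:**
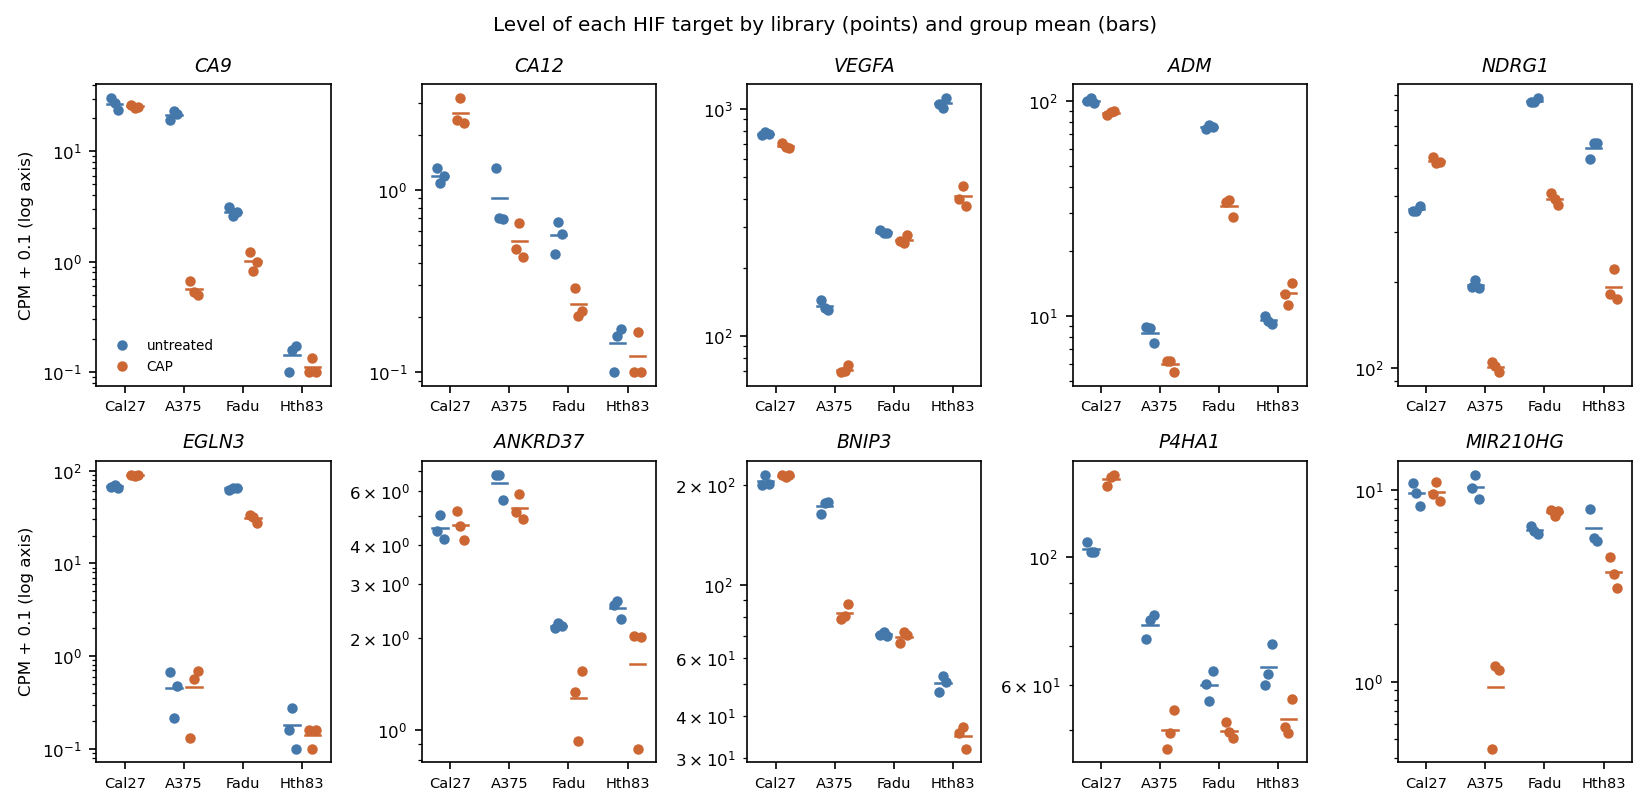
Level of each gene in CPM plus 0.1 (log axis) in every library (points) with the group mean (bars), untreated in blue and CAP in orange, 3 libraries per group. CA9 and MIR210HG in A375 show the widest gaps, and the CAP points of NDRG1 and P4HA1 lie above the untreated ones in Cal27 and below them in the other 3 lines.

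EGLN3, an oxygen sensor that is itself induced by HIF, rose in Cal27 from 67.5, 70.4 and 64.8 to 90.6, 88 and 90.1 CPM (log2 0.41 ± 0.05 SE, edgeR adjusted p = 2.53e-08). It fell in Fadu from 62.5, 65.6 and 65.3 to 33.5, 31.9 and 27 CPM (log2 -1.08 ± 0.06 SE, edgeR adjusted p = 1.87e-27). From nearly equal untreated levels the CAP groups of the 2 lines thus moved apart, with effects that differed by 1.47 (95% interval 1.14 to 1.80, edgeR adjusted p = 1.05e-08). In A375 the counts were 31, 4 and 12 untreated and 1, 18 and 27 after CAP, which overlapped widely (log2 0.05 ± 0.59 SE, edgeR adjusted p = 0.957).

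NDRG1, the most abundant of the 10 per kilobase in Fadu, passed the test in all 4 lines, and Cal27 was the 1 line where it rose. In Cal27 it went from 354, 355 and 368 to 545, 520 and 525 CPM (log2 0.57 ± 0.03 SE, edgeR adjusted p = 6.78e-15). In A375 it fell from 192, 204 and 191 to 105, 102 and 96.8 CPM (log2 -0.92 ± 0.04 SE, edgeR adjusted p = 2.3e-17). In Fadu it fell from 848, 850 and 876 to 410, 389 and 372 CPM (log2 -1.15 ± 0.03 SE, edgeR adjusted p = 1.58e-48).

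Hth83 had the largest of the 4 NDRG1 changes, from 536, 610 and 611 to 182, 222 and 174 CPM (log2 -1.60 ± 0.10 SE, edgeR adjusted p = 7.64e-06). No groups overlapped in any line. The effects in A375 and Fadu did not differ beyond their error (0.19, 95% interval 0.00 to 0.37, edgeR adjusted p = 0.104). The paralogs NDRG2, NDRG3 and NDRG4 moved little: NDRG2 fell in Cal27 (-0.26 ± 0.04 SE), NDRG4 fell in A375 (-0.27 ± 0.06 SE) and rose in Hth83 (0.38 ± 0.14 SE), and NDRG3 rose in Hth83 (0.12 ± 0.05 SE). None of the 3 passed in Fadu, where NDRG3 had the lowest unadjusted p, 0.0408.

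P4HA1, the catalytic subunit of collagen prolyl 4-hydroxylase, showed the same division between Cal27 and the other lines at smaller size. It rose in Cal27 from 106, 102 and 102 to 133, 138 and 139 CPM (log2 0.41 ± 0.04 SE, edgeR adjusted p = 1.87e-09). It fell in A375 from 71.8, 77.6 and 79.2 to 46.3, 49.3 and 54.1 CPM (log2 -0.58 ± 0.05 SE, edgeR adjusted p = 2.25e-10). In none of the lines did the groups overlap.

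In Fadu P4HA1 fell from 60.1, 56 and 63.2 to 51.5, 49.6 and 48.3 CPM (log2 -0.27 ± 0.05 SE, edgeR adjusted p = 4.67e-06) and in Hth83 from 59.8, 62.5 and 70.4 to 50.6, 49.4 and 56.6 CPM (log2 -0.29 ± 0.07 SE, edgeR adjusted p = 0.000579). The Hth83 call for P4HA1 was lost with limma on log2(TPM + 1) (adjusted p = 0.115) and the Fadu call with the same and no filter (0.0588). The Fadu and Hth83 effects differed by 0.03 (95% interval -0.14 to 0.21). P4HB, the partner subunit in the same enzyme, changed in the opposite direction in Cal27 (-0.27 ± 0.03 SE) and A375 (0.37 ± 0.04 SE) and fell in Hth83 (-0.60 ± 0.04 SE). Of 7 genes of collagen hydroxylation and folding, 7, 7, 7 and 6 were tested in Cal27, A375, Fadu and Hth83, with 1, 5, 3 and 1 higher and 3, 1, 0 and 2 lower, and medians of -0.07, 0.30, 0.21 and -0.18.

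BNIP3, a receptor for mitophagy on the outer mitochondrial membrane, fell in A375 and Hth83. In A375 it fell from 164, 177 and 178 to 78.5, 80.2 and 87.1 CPM (log2 -1.05 ± 0.04 SE, edgeR adjusted p = 6.94e-18), and in Hth83 from 47.1, 52.8 and 50.8 to 35.6, 36.9 and 31.8 CPM (log2 -0.52 ± 0.07 SE, edgeR adjusted p = 3.18e-07). The groups were apart in both. Fadu held 70.4, 71.9 and 69.6 CPM untreated and 66.7, 71.6 and 70.4 after CAP (log2 -0.03 ± 0.05 SE, edgeR adjusted p = 0.595), and Cal27 200, 215 and 202 against 215, 212 and 214 CPM (0.06 ± 0.04 SE, adjusted p = 0.195). Both overlapped, though on the deposited TPM, with its shift of the median, BNIP3 in Cal27 was called higher at 0.30. The Fadu effect differed from that in A375 (-1.05 for A375 minus Fadu, edgeR adjusted p = 1.33e-17) and in Hth83 (0.51 for Fadu minus Hth83, adjusted p = 1.27e-07).

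BNIP3L, the close relative of BNIP3, fell in Fadu too (log2 -1.25 ± 0.05 SE), as well as in A375 (-0.71 ± 0.06 SE) and Hth83 (-0.68 ± 0.06 SE), and rose in Cal27 (0.29 ± 0.05 SE). BNIP3L was named in Cal27, A375 and Fadu after its values were seen. Of 8 other mitophagy genes, 7 were tested in each line, with 0, 2, 1 and 2 higher and 4, 4, 5 and 4 lower in Cal27, A375, Fadu and Hth83, and medians of -0.27, -0.28, -0.36 and -0.16. Among all genes tested 21.9%, 25.7%, 26.3% and 25.9% were higher and 23.2%, 24.8%, 27% and 24.2% lower. Among them the autophagy receptor CALCOCO2 fell in Cal27 (-0.27 ± 0.05 SE), A375 (-0.46 ± 0.04 SE), Fadu (-0.62 ± 0.04 SE) and Hth83 (-0.84 ± 0.06 SE).

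MIR210HG was, after CA9, the gene with the deepest loss. In A375 it fell from 10.1, 11.9 and 8.91 to 0.346, 1.1 and 1.05 CPM, 11.6-fold (log2 -3.54 ± 0.21 SE, edgeR adjusted p = 1.09e-12). In Hth83 it fell from 7.8, 5.48 and 5.34 to 4.39, 3.56 and 2.96 CPM (log2 -0.76 ± 0.18 SE, edgeR adjusted p = 0.000773). Neither pair of groups overlapped, and the 2 effects differed by -2.79 (95% interval -3.39 to -2.19, edgeR adjusted p = 2.51e-11). The Hth83 call for MIR210HG was lost with limma on log2(TPM + 1) without a filter (adjusted p = 0.102).

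In Cal27 MIR210HG held 10.8, 9.55 and 8.15 CPM untreated and 9.47, 10.9 and 8.62 CPM after CAP (log2 0.03 ± 0.12 SE, edgeR adjusted p = 0.863). In Fadu it rose from 6.38, 6 and 5.77 to 7.78, 7.21 and 7.7 CPM (log2 0.31 ± 0.13 SE, edgeR adjusted p = 0.0333), the 1 rise among the 10 genes in that line. That rise of MIR210HG was lost when untreated replicate 2 or 3, or CAP replicate 1 or 3, was left out, with adjusted p of 0.072, 0.0906, 0.0875 and 0.0705, and in the fit of all 24 libraries (0.125). The locus contains MIR210 with no shared exon bases, and mature miR-210 was not measured.

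ANKRD37 changed least clearly. It fell in Fadu from 2.06, 2.13 and 2.08 to 1.23, 0.827 and 1.46 CPM (log2 -0.85 ± 0.26 SE, edgeR adjusted p = 0.00388), a call for ANKRD37 that missed the threshold without CAP replicate 2 (adjusted p = 0.0505). In Hth83 the values were 2.46, 2.53 and 2.2 against 1.93, 0.772 and 1.92 CPM (log2 -0.62 ± 0.28 SE, edgeR adjusted p = 0.0624), with CAP replicate 2 far below its group. ANKRD37 in Hth83 passed in 5 of 17 alternatives (adjusted p from 0.0271 to 0.353 over all). In A375 they were 6.68, 6.69 and 5.52 against 5.04, 5.77 and 4.76 CPM (-0.26 ± 0.13 SE, adjusted p = 0.102, and 0.0398 with library size only), and in Cal27 4.36, 4.91 and 4.08 against 5.06, 4.51 and 4.06 CPM (0.04 ± 0.17 SE, adjusted p = 0.88). ANKRD37 shares 909 exon bases, 35.2% of its exons, with UFSP2 on the opposite strand, which fell in A375 (-0.26, edgeR adjusted p = 0.0016) and Hth83 (-0.45, adjusted p = 4.13e-05) and stood at 0.00 in Fadu (adjusted p = 0.997).

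Whether the CAP effect differed between lines was tested with an interaction term over all 24 libraries. It passed for 9 of the 10 genes, beside 56.9% of all genes tested, with edgeR adjusted p from 3.53e-25 for CA9 to 0.000202 for CA12, and missed for ANKRD37 (0.0572, from 0.03 to 0.168 over the alternatives). By pairs of lines, the Cal27 effect differed from that in A375 for 8 of the 10 (35.5% of all genes), in Fadu for 7 (38.4%) and in Hth83 for 6 (35%). The A375 effect differed from that in Fadu for 6 (36%) and in Hth83 for 6 (27.3%), and the Fadu effect from that in Hth83 for 5 (35.7%). The A375 and Cal27 effects differed for CA9, MIR210HG (3.59, 95% interval 3.02 to 4.15), CA12 (2.18, 1.01 to 3.35), NDRG1 (1.51, 1.33 to 1.70), BNIP3 (1.13, 0.99 to 1.28), P4HA1 (1.01, 0.84 to 1.18), VEGFA (0.75, 0.60 to 0.90) and ADM (0.33, 0.09 to 0.57). They did not differ beyond error for ANKRD37 (0.32, -0.26 to 0.89) and EGLN3 (0.39, -0.66 to 1.45). Fadu and A375 had the same number of genes lower. BNIP3 and MIR210HG were lower in A375 and not in Fadu, and EGLN3 and ANKRD37 in Fadu and not in A375. In size, the effects on CA9, MIR210HG, VEGFA, BNIP3 and P4HA1 were more negative in A375. That on ADM was more negative in Fadu (0.70, 95% interval 0.46 to 0.95, edgeR adjusted p = 1.77e-06). The effects on EGLN3 and ANKRD37 did not differ beyond error (edgeR adjusted p = 0.101 and 0.154).

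Over the 24 libraries, with each gene centred on the mean of its line, the 45 pairs among the 10 genes had Pearson correlations of log2 CPM from 0.01 to 0.91 with a median of 0.47, all positive. These describe libraries that share a treatment and carry no test. The genes most like CA9 by this measure, among 10187 genes, were the semaphorin SEMA4B (0.959), ADM2 (0.959), the glycogen-targeting subunit PPP1R3B (0.944), the arrestin-domain gene ARRDC3 (0.942) and the extracellular superoxide dismutase SOD3 (0.934). In A375 they fell by 0.86, 3.36, 1.19, 1.40 and 0.96 on the log2 scale, and in Cal27 the 3 tested besides ADM2 stood at 0.03 to 0.13 without passing. SEMA4B stood at -0.14 in Fadu and 0.05 in Hth83, and PPP1R3B at -0.43 and 0.03. These genes and those named next were picked for likeness to a member, so their changes alongside it follow from that choice. TRIB3, a stress-response pseudokinase, was most like VEGFA (0.982), with log2 changes of -2.53 in Hth83 and -1.45 in A375. The genes most like the others were DTX3L for ADM (0.964), SGPL1 for NDRG1 (0.977), ATP8B1 for EGLN3 (0.671), TRAK1 for CA12 (0.883), VAPB for ANKRD37 (0.803), RIPK2-DT for BNIP3 (0.951), RPS6KA3 for P4HA1 (0.937) and MEOX2 for MIR210HG (0.965). SOD3 and MEOX2 had too few counts to be tested in Cal27, Fadu and Hth83. Their correlations rest mainly on the A375 libraries and do not show likeness in the other lines.

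The mRNAs of the HIF system itself changed in part alongside. EPAS1 fell in A375 from 7.48 ± 0.269 to 3.01 ± 0.247 CPM (log2 -1.29 ± 0.14 SE, edgeR adjusted p = 2.84e-09) and in Fadu from 98.5 ± 4.35 to 50.5 ± 0.734 CPM (-0.98 ± 0.05 SE, adjusted p = 4.82e-34; SD, n = 3). In Cal27 and Hth83 it stood at 0.03 and 0.00 (adjusted p = 0.491 and 0.96). HIF1A, with untreated means of 257 to 475 CPM, changed little on the log2 scale, at -0.05 in Cal27 (adjusted p = 0.307), 0.09 in A375 (0.0285), -0.18 in Fadu (4.85e-06) and -0.15 in Hth83 (0.00587).

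EGLN1, the main HIF prolyl hydroxylase, rose in Cal27 (log2 0.57 ± 0.08 SE, edgeR adjusted p = 6.08e-07) and fell in Fadu (-0.62 ± 0.11 SE, adjusted p = 1.11e-06) and A375 (-0.20, adjusted p = 0.0185). It stood at 0.28 in Hth83 (adjusted p = 0.0905). ARNT rose in Cal27 (0.21) and fell in A375 (-0.31) and Fadu (-0.15). VHL rose in Cal27 (0.23) and fell in A375 (-0.21) and Hth83 (-0.26), and HIF1AN, which hydroxylates the alpha subunit at another site, rose in Cal27 (0.31) and A375 (0.13) and fell in Fadu (-0.17). Of 16 genes of the subunits and oxygen sensing 15 were tested in each line, with 7, 10, 4 and 4 higher and 3, 5, 9 and 4 lower in Cal27, A375, Fadu and Hth83, and medians of 0.03, 0.18, -0.17 and -0.05. Against 25.9% higher and 24.2% lower among all genes in Hth83, the 4 of 15 in each direction there are near the background.

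The 26 other HIF targets outside glycolysis were counted the same way. In Cal27 13 of 26 rose and 3 fell (median 0.14), beside 21.9% and 23.2% of all genes. In A375 3 of 25 rose and 21 fell (-0.53), beside 25.7% and 24.8%. In Fadu 4 of 26 rose and 16 fell (-0.35), beside 26.3% and 27%. In Hth83 6 of 25 rose, near the 25.9% of all genes, and 11 fell (-0.18), beside 24.2%. ANGPTL4, a secreted inhibitor of lipoprotein lipase, rose in Cal27 (log2 0.99 ± 0.06 SE) and Fadu (1.95 ± 0.08 SE) and fell in A375 (-1.61 ± 0.09 SE). In Fadu it thus rose from 8.8 ± 0.552 to 34.1 ± 0.433 CPM (SD, n = 3) while ADM, EGLN3 and NDRG1 fell. STC2, a secreted stanniocalcin, fell in Cal27 (-0.19 ± 0.03 SE), A375 (-1.03 ± 0.10 SE), Fadu (-0.77 ± 0.03 SE) and Hth83 (-1.15 ± 0.08 SE).

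The transcription repressor BHLHE40 fell in A375 (log2 -0.98 ± 0.05 SE), Fadu (-0.71 ± 0.04 SE) and Hth83 (-0.41 ± 0.07 SE) and rose in Cal27 (0.30 ± 0.06 SE). The collagen lysyl hydroxylase PLOD2 fell in Fadu (-0.93 ± 0.04 SE) and A375 (-0.13 ± 0.05 SE) and rose in Cal27 (0.32 ± 0.04 SE) and Hth83 (0.31 ± 0.05 SE). The histone demethylase KDM3A rose in Cal27 (0.52 ± 0.05 SE) and fell in A375 (-0.48 ± 0.05 SE) and Fadu (-0.17 ± 0.04 SE). Of 21 glycolytic targets tested in each line, 13 rose and 4 fell in Hth83 (median 0.31), 5 and 9 in Cal27 (-0.02), 7 and 11 in A375 (-0.22) and 2 and 16 in Fadu (-0.31), beside the shares of all genes just given. The pyruvate kinase PKM and the mutase PGAM1 rose in Hth83 (0.61 ± 0.04 and 0.76 ± 0.05 SE) and in A375 (0.44 ± 0.03 and 0.44 ± 0.04 SE). Both fell in Cal27 (-0.20 ± 0.03 and -0.19 ± 0.04 SE) and Fadu (-0.28 ± 0.03 and -0.16 ± 0.03 SE). Other glycolytic targets fell where these rose, ALDOC (-1.62 ± 0.06 SE) and SLC2A3 (-1.28 ± 0.05 SE) in A375. In Hth83 ENO2 (-1.44 ± 0.17 SE) and PDK1 (-0.51 ± 0.07 SE) fell. The glucose transporter SLC2A1 fell in Fadu (-0.88 ± 0.03 SE) and Hth83 (-0.27 ± 0.04 SE) and rose in A375 (0.23 ± 0.06 SE). Differences between lists, or between lines for a list, were not tested.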

How the data were processed

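Trizol RNA went into SMARTER mRNA-Seq libraries, per the labels' protocols. HISAT2 and the build GRCh38 are named in the submitters' processing notes. The counter, the annotation release and any use of strand are not given in the sources used. The authors deposited raw counts per gene and TPM for each line. The deposited TPM equal the counts divided by 1 length per gene: for 93.2% of 11556 genes that length lay within 5% of the gene's span in GENCODE 29, introns included, and for 3.57% within 5% of its exons. TPM were therefore not used to compare genes, since span over exon length ran from 1 (ADM) to 73.2 (EGLN3). All mitochondrial genes held 0 counts. A symbol table named 61369 of the 61533 identifiers and GENCODE a further 149, which left 15 unnamed.

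The main test was edgeR 4.0.16 (R 4.3.3) on the counts, 3 against 3 libraries in each line, with filterByExpr (minimum count 10, minimum total 15), TMM, the robust quasi-likelihood test and Benjamini-Hochberg adjustment over all genes tested (17371 in Cal27, 19604 in A375, 19152 in Fadu and 17279 in Hth83), threshold 0.05. Interaction and untreated levels came from 1 edgeR fit of all 24 libraries as 8 groups (16 residual degrees of freedom), which gives the 95% intervals. SE is the log2 fold change divided by the root of F. The alternatives tried were library size only, RLE size factors, DESeq2 1.42.0, a low-count filter either dropped or raised to a CPM of 1, a replicate block, the joint fit, the omission of each library in turn, and limma 3.58.1 on TPM. limma used log2(TPM + 1), filtered at a TPM of 1 or unfiltered, and log2(TPM + 0.1). After seeing the data, TPM recomputed from exon length was added. Replicate libraries were noisier than counting error alone (chi-square over degrees of freedom 2.88 to 7.91). On simulated data edgeR recovered, of genes changed 2-fold, 97% in Cal27 (17364 genes, 6.28% of calls false), 98% in A375 (19593, 3.45%), 95.5% in Fadu (19089, 4.5%) and 97.5% in Hth83 (17267, 3.94%). Of genes changed 1.5-fold it recovered 86% in Cal27 (17358 genes, 8.51% false), 84% in A375 (19593, 5.08%), 84.5% in Fadu (19117, 3.43%) and 84% in Hth83 (17245, 5.62%). The simulation changed 200 genes with enough counts, left all others unchanged and gave every gene the same dispersion. In the real data 45.1% (Cal27) to 53.3% (Fadu) of genes were called, and CA12 held few counts. These rates are therefore not the power or error of the calls reported here.

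The 10 genes, the lists (178 symbols, all found) and the tests were chosen with earlier results of these data known. Named were the 10 genes, HIF1A, EPAS1, ARNT, VHL, EGLN1 and HIF1AN, and from each other list at most the 2 genes with the smallest p per direction and line. The values of some of these in further lines were added after they were seen. Genes most like a member had the highest Pearson correlation of line-centred log2 CPM (prior count 2), among genes with a mean of at least 10 CPM, clone names left out. ARHGEF39 and UFSP2 were named for sharing exons.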

Additional observations from a re-analysis of the deposited data

Results flagged for a closer look

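By the interaction term of edgeR over 24 libraries, the CAP effect differed between the 4 lines for 9 of the 10 genes. The share among all genes tested was 56.9%. Among the other genes named above, the interaction was read only for EPAS1, EGLN1, ANGPTL4, HIF1A, ARNT, VHL and HIF1AN. It passed for each of them. The adjusted p was 3.53e-25 for CA9, 0.000202 for CA12, 3.13e-20 for VEGFA, 1.23e-17 for ADM, 7.2e-17 for NDRG1, 8.86e-08 for EGLN3, 3.34e-20 for BNIP3, 2.08e-14 for P4HA1 and 3.18e-17 for MIR210HG. The effect on CA9 was -5.51 in A375 and -0.08 in Cal27 on the log2 scale. ADM fell by 1.23 in Fadu while it rose by 0.43 in Hth83. NDRG1 and P4HA1 rose in Cal27 and fell in the other 3 lines. For EPAS1, EGLN1 and ANGPTL4, the adjusted p was 1.46e-21, 4.28e-09 and 3.47e-27. ANGPTL4 rose in Fadu by 1.95 and fell in A375 by 1.61 on the log2 scale.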

How the results depend on the processing

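For single genes, 1179 of the alternative values kept direction and side of the threshold, 31 lost the call, 17 gained one and 6 changed sign. The 6 were VEGFA (0.06) and ADM (0.05) in Cal27 in each of the 3 settings of limma on the deposited TPM. The 2 genes lower in Cal27 became 1 with library size only and 0 with those 3 settings and with TPM from exon length. The 1 gene higher in Fadu became 0 with no low-count filter and with all 24 libraries in 1 fit, and ranged from 0 to 1 with 1 library left out. The 5 genes lower in Hth83 became 3 with limma on log2(TPM + 1), with or without the filter. The cause was not tested. CA9 ranged from -5.65 to -4.56 in A375 and from -1.76 to -1.18 in Fadu over the alternatives. The share of all called genes that were higher was 48.5% in Cal27, 62.4% under library size only and 83.4% under limma on log2(TPM + 1). In A375 these shares were 50.9%, 39.8% and 41%, and in Fadu the first were 49.3% and 61.8%.

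With the replicate block, 8 genes lower in A375 became 7, as CA12 missed the threshold (-0.85, adjusted p = 0.0776), and ANKRD37 in Hth83 passed it (adjusted p = 0.0439). Calls over all genes moved from 7832 to 7704 in Cal27 and from 9900 to 9946 in A375. Same-numbered libraries correlated at -0.061 to 0.065, and 3 of 12 untreated libraries correlated best with their own number, so the numbers were not taken to pair them. Low counts limit CA9, CA12 and EGLN3 in Hth83, which held at most 6 counts of each in any library.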
